A study of Mus musculus with 8 samples.

Results

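The respiratory chain of the inner mitochondrial membrane passes electrons from succinate (complex II) to ubiquinone, from ubiquinol (complex III) to cytochrome c, and from cytochrome c (complex IV) to oxygen. The proton gradient built by complexes III and IV drives ATP synthase, which is counted as complex V. Most subunits of these complexes are encoded in the nucleus, and in white fat the chain serves ATP supply for lipid storage and release. The genes described here were the 41 nuclear-encoded subunits of complexes II, III, IV and V together with cytochrome c. They were chosen by function, but with earlier results of these data known. Of the 41 genes, 40 had a probe that could be matched through its RefSeq transcript accession and was bright enough to test. They comprised 4 genes of complex II, 9 of complex III, 12 of complex IV and 14 of complex V, plus Cycs, which encodes cytochrome c, among 25064 genes or transcribed features tested in all. Atp5g1, 1 of the 3 genes for the c subunit of ATP synthase, was not analysed here.

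Gonadal white fat was profiled from 4 Rap1-/- and 4 wild-type (WT) mice, each on its own one-colour Agilent array. Terf2ip encodes RAP1, a shelterin component that sits on telomeres and at other sites of the chromosomes. The knockout is constitutive and affects the whole body: a floxed Rap1 allele was deleted by a cre driven from the EIIa promoter in the early embryo, and the cre was then bred out. Both genotypes were on a C57BL6/129SV (90%:10%) background and were sampled at 10 weeks of age, an age that the study chose to precede obesity. Per the study's account of its results the young mice were females. The comparison asks how transcription in fat differs between the genotypes at that age.

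Signals are given on the log2 scale relative to the 75th percentile of the array, so that a difference of -0.20 stands for a signal 1.15-fold lower. Over the 8 arrays that percentile lay between 302 and 497 intensity units and leaned higher in Rap1-/-. It was highest on Rap1-/- replicate 1 and lowest on WT replicate 3. On slide 1 both Rap1-/- arrays lay above both WT arrays, and on slide 2 the genotypes overlapped. The share of spots well above background was 59.7% to 65.2%, and saturation affected 0 spots. The deleted gene was read by 2 probes, and their positions relative to the deletion were not examined. On the first, the WT arrays averaged 0.26 ± 0.18 (SD, n = 4), and 0 of 4 Rap1-/- arrays were well above background, a signal at least 49.9-fold lower. On the second, the mean was -1.41 ± 0.10 for WT and 0.97 ± 0.09 for Rap1-/- (SD, n = 4 each). The second probe was 5.22-fold higher in the knockout and was the only feature to pass the adjusted threshold (limma, Benjamini-Hochberg adjusted p under 0.05), which is 0.00399% of all features. Only the brightest kept probe of each gene was tested, so the first Terf2ip probe was not among these features. Each of the 2 slides carried 2 arrays of each genotype, but WT lay at positions 1 and 2 and Rap1-/- at positions 3 and 4 of both, so position and genotype cannot be told apart.

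All 40 subunit genes had a lower mean signal in Rap1-/- than in WT fat, by small amounts, and none passed the test. The median difference was -0.20 and the range was -0.29 to -0.03, against a median of -0.04 over all features, of which 59.9% were lower. When the arrays were scaled to their E1A spike-in probes instead, only 10 of the 40 were lower and 30 were higher. Under that scaling the median of all features moved to 0.19 and that of the subunit genes to 0.03, a gap of 0.16 that is the same under both scalings by construction, since each array is moved by 1 constant. Counted at the adjusted threshold, 0 of 40 subunit genes were lower (limma, adjusted p from 0.874 to 0.978), as were 0% of all features, which do not include the first Terf2ip probe. At an unadjusted p under 0.05 the limma count was 4 of 40 (Uqcrh, Atp5h, Atp5g2 and Atp5a1), or 10.0%, where 3.31% of all features were lower at that level and 4.98% differed in either direction. The 95% interval of the difference held 0 for 36 of the 40. The count of 4 depended on the processing and on single arrays, as did the share of all features lower at that level, which is given in brackets. It was 0 with median scaling (1.92%), with quantile normalisation (2.25%), in the deposited value table (2.11%), with E1A scaling (0.347%) and with the replicate number as a block (3.24%). It was 2 with normexp background correction (3.82%), 1 with the muscle covariate (3.24%) and 10 when the limma variance was fitted with a trend and robustly (3.70%). Of the Rap1-/- arrays, leaving out replicate 1 gave 1 (2.12%), replicate 2 gave 7 (2.34%) and replicate 3 gave 2 (2.99%). Of the WT arrays, leaving out replicate 1 gave 1 (2.19%), replicate 2 gave 17 (6.39%) and replicate 3 gave 2 (2.24%).

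**Figure D1:**
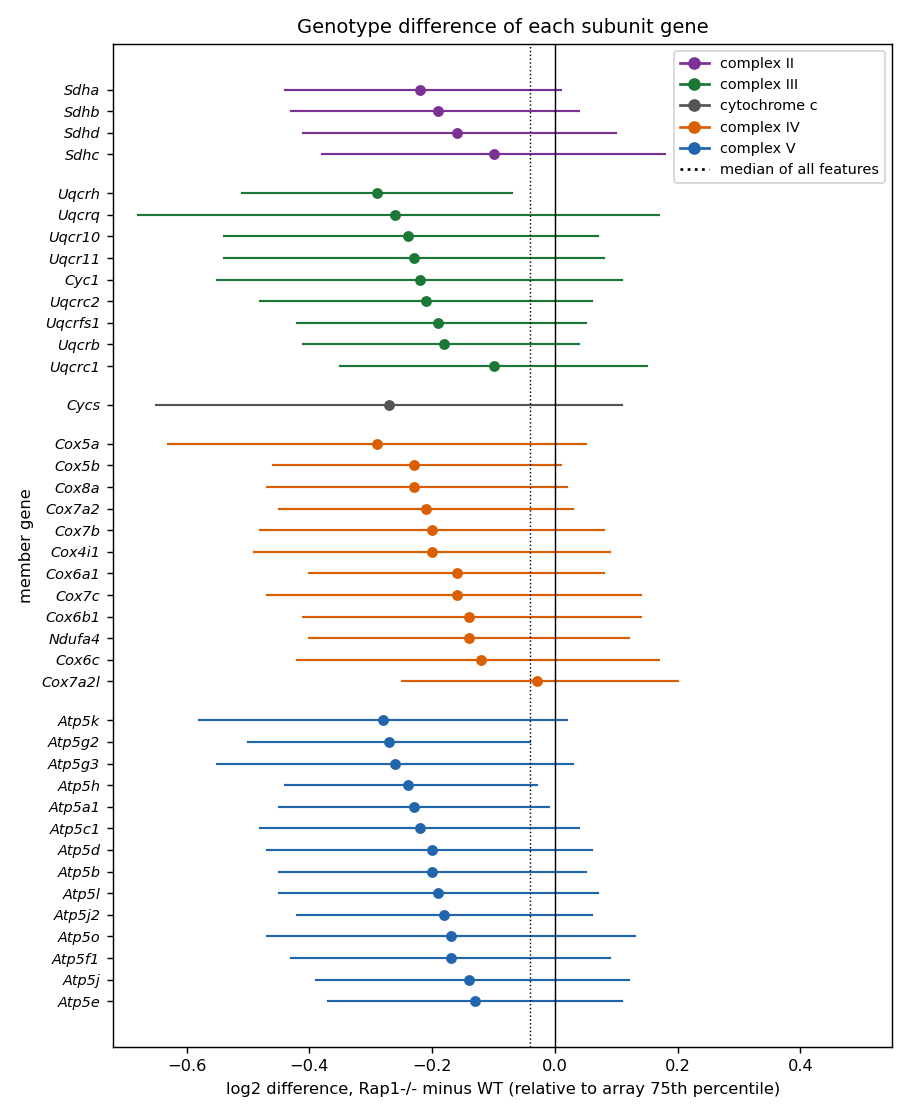
Difference of each subunit gene between the genotypes (log2, Rap1-/- minus WT, relative to the 75th percentile of the array; 4 arrays each), with points for the estimate, bars for the 95% interval from limma, and a dotted line at the median of all features (-0.04). All 40 points lie below 0, from -0.29 to -0.03, and 36 of the bars cross 0.

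Bright probes leaned lower in the knockout as a whole. The subunit genes were read by bright probes, whose median signal lay at percentile 97.5 of all features. In the brightest 10% of features, with the subunit genes left out, 1954 of 2469 were lower and the median difference was -0.09. Of these bright features, 5.1% were lower at an unadjusted limma p under 0.05. They were not counted under other scalings. E1A scaling moves them by the same constant as all features, whose median it moved from -0.04 to 0.19. Complex I, the entry point for electrons from NADH, had 36 of 36 measured subunits lower with a median of -0.17. The enzymes of the tricarboxylic acid cycle, which feed the chain, had 12 of 14 lower with a median of -0.12. Among ribosomal proteins, 64 of 74 mitochondrial and 77 of 81 cytosolic ones were lower, with medians of -0.08 and -0.11. The cytosolic ribosomal median turned to 0.02 after quantile normalisation, 0.01 in the deposited value table and 0.12 with E1A scaling, which also gave 0.15 for the mitochondrial ribosomal proteins and 0.05 for complex I. These lists are set side by side as counts, and the differences between them were not tested.

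**Figure D2:**
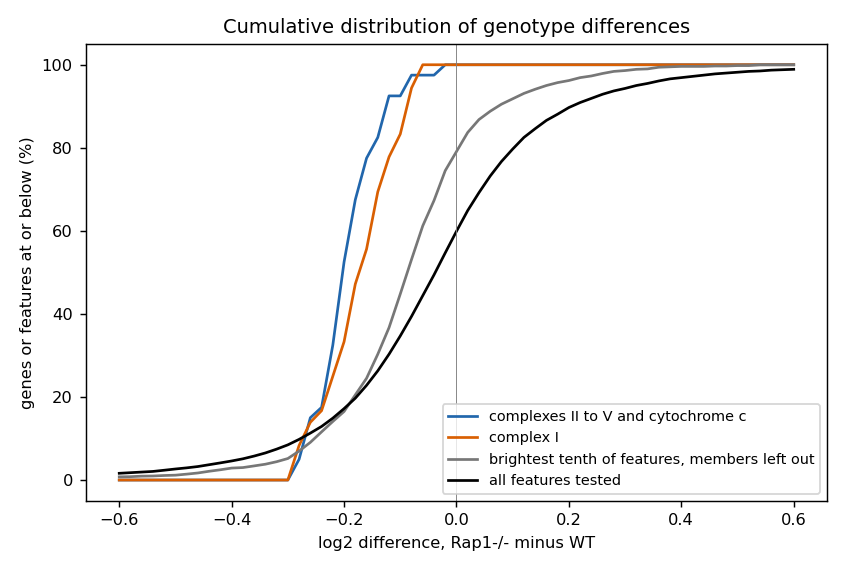
Share of genes (%, y axis) whose difference is at or below the value on the x axis (log2, Rap1-/- minus WT), for the 40 subunit genes, the 36 complex I subunits, the brightest 10% of features without the subunit genes, and all 25064 features. The curve of the subunit genes runs furthest left at its middle, with medians of -0.20, -0.17, -0.09 and -0.04 in that order.

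The subunit genes shared one pattern over the 8 arrays. After each gene's mean over all arrays was subtracted, their median was -0.23, 0.01, -0.15 and -0.03 on Rap1-/- replicates 1 to 4, and 0.29, -0.10, 0.08 and 0.11 on WT replicates 1 to 4. The genotypes therefore overlapped, since WT replicate 2 lay below Rap1-/- replicates 2 and 4. WT replicate 1 was the highest array for 35 of the 40 genes and Rap1-/- replicate 1 the lowest for 34. WT replicate 2 was below the gene mean for 37 of 40 genes. With the mean over the 40 genes taken on each array, the spread within a genotype was 0.12 in Rap1-/- and 0.16 in WT (SD, 4 arrays). The genotype means of these array values were -0.10 and 0.10. The median difference was -0.15 without Rap1-/- replicate 1 and -0.14 without WT replicate 1, and -0.26 without WT replicate 2. It was -0.21 within slide 1, with 40 of 40 genes lower, and -0.19 within slide 2, with 39 of 40 lower. Complex I ran alike, from -0.20 on Rap1-/- replicate 1 to 0.29 on WT replicate 1.

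**Figure D3:**
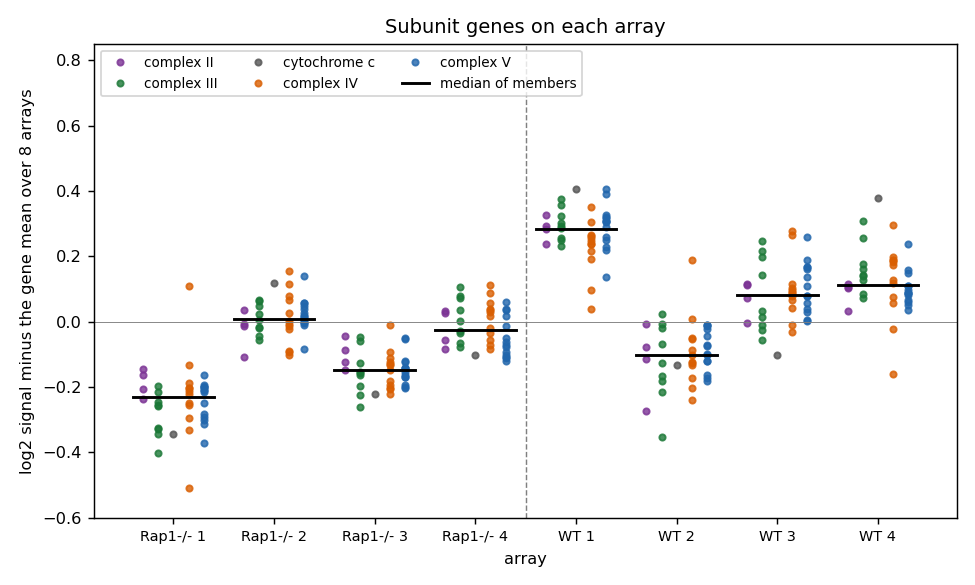
Signal of each subunit gene on each array (log2, minus the gene's mean over 8 arrays), coloured by complex, with a bar for the median of the 40 genes. The bars run from -0.23 (Rap1-/- replicate 1) to 0.29 (WT replicate 1), and WT replicate 2 at -0.10 lies below Rap1-/- replicates 2 and 4.

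Markers of other cells were read on the same arrays. Of 10 adipocyte markers, 9 were lower in Rap1-/- with a median difference of -0.24, among them the fatty acid binding protein Fabp4 (-0.27) and the lipid droplet protein Cidec (-0.31), while the hormone gene Lep was higher by 0.63 ± 0.31. That median was -0.03 after quantile normalisation, -0.04 in the deposited value table and -0.01 with E1A scaling. Their summed level, on the linear scale relative to the 75th percentile, was 3200 to 3490 in Rap1-/- and 3470 to 4260 in WT. In bulk tissue, fewer cells of a type and less RNA per cell cannot be told apart. All 9 measured mesothelial markers were higher in Rap1-/-, with summed levels of 40.0 to 49.7 against 17.5 to 45.5. WT replicate 3 was the lowest array for all 9. Their median difference was 0.22 within slide 1, where 1 of them was lower, and 1.06 within slide 2. Fibroblast and preadipocyte markers were lower for 3 of 10 (546 to 581 against 418 to 609), macrophage markers for 2 of 8 (63.6 to 83.3 against 59.2 to 73.4) and endothelial markers for 5 of 8 (54.1 to 91.7 against 62.1 to 85.3). The part of these cell types in the subunit differences was not tested.

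Skeletal muscle markers varied most between arrays, with summed levels of 7.95 to 1460 in Rap1-/- and 90.0 to 615 in WT, and 15 of 15 had a lower mean in Rap1-/-. Myh4, a fast myosin heavy chain, read -7.49, 8.22, 6.80 and -7.54 on the Rap1-/- arrays and 7.18, 4.77, 3.57 and 6.86 on the WT arrays. The muscle markers were lowest on Rap1-/- replicates 1 and 4, whose subunit medians were -0.23 and -0.03. A covariate was made from the mean per array of the 11 muscle markers well above background on all 8 arrays, which leaves out Myh4. With it in the model, the median of the subunit genes was -0.18 and 40 of 40 stayed lower. Brown and beige adipocyte markers were lower for 5 of 7, with summed levels of 16.5 to 54.6 against 26.4 to 54.2, and Ucp1, which uncouples the chain in brown fat, was well above background on 3 arrays of each genotype.

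The promoters of the subunit genes were searched for motifs, and those of 5 genes are printed. NRF1, the ETS factor GABP and YY1 are known regulators of nuclear respiratory genes. RefSeq (GRCm38.p6) gave 36 promoters for 33 of the 41 genes, each running from 250 bases before the start to 50 after, and both strands were searched for every motif. The NRF1 palindrome, with 1 free base at its centre, was found in 10 of 36 promoters, or 27.8%, against 4.60% of all 32851 promoters of that length. CCGGAAG (ETS, GABP) was found in 12, or 33.3%, against 8.86%, and AAGATGGC (YY1) in 3, or 8.33%, against 2.75%. At least 1 of the 3 was present in 20 promoters (55.6%), in 18 of 34 complex I promoters (52.9%) and in 14.7% of all promoters, and matches to different motifs overlapped in 0 promoters of the subunit genes. The telomeric repeat TTAGGG in direct tandem, the sequence that shelterin covers, was in 0 of the 36 and in 4 of all promoters. The promoters below are those of Sdha (chr13:74350191-74350490), with 3 NRF1 matches, Uqcrh (chr4:116075021-116075320), the gene with the smallest p, with 1 ETS match, Atp5h (chr11:115419870-115420169), with 1 NRF1 and 1 ETS match, Atp5g2 (chr15:102670998-102671297), with 1 NRF1 match, and Cox7a2l (chr17:83514284-83514583), the gene with the smallest difference, with no match. All 5 are on the minus strand and are printed 5′ to 3′ along the gene, with matches in capitals. A match describes the letters and not binding. Matches to NRF1, ETS and YY1 were also absent from promoters of genes with large differences, such as Cox5a (-0.29), Cycs (-0.27) and Uqcr10 (-0.24). They were present for genes with small ones, such as Cox6b1 (-0.14) and Uqcrc1 (-0.10). The 5 printed promoters do not show how matches relate to the differences, which was not tested.
Sdha: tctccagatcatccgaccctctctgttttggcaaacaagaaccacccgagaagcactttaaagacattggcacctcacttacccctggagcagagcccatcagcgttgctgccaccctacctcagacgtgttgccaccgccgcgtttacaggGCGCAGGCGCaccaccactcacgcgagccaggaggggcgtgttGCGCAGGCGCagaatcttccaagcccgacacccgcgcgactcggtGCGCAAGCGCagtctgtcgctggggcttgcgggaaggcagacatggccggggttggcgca
Uqcrh: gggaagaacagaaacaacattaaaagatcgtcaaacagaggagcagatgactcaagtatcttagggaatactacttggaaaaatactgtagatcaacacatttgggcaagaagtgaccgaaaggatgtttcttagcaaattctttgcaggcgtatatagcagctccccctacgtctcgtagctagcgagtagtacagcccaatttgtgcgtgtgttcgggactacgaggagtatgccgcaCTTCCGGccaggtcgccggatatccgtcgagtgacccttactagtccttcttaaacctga
Atp5h: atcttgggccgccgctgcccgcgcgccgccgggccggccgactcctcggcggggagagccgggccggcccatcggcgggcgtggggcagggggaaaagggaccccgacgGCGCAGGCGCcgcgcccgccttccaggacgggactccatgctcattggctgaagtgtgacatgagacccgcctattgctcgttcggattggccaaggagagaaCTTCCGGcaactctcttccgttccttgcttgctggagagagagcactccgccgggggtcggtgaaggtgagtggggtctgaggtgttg
Atp5g2: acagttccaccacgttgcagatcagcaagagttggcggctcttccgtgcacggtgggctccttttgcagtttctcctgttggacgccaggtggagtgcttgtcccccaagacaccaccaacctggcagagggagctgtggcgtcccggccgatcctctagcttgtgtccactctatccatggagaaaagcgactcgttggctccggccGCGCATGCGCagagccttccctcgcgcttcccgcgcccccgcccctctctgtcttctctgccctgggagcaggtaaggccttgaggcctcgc
Cox7a2l: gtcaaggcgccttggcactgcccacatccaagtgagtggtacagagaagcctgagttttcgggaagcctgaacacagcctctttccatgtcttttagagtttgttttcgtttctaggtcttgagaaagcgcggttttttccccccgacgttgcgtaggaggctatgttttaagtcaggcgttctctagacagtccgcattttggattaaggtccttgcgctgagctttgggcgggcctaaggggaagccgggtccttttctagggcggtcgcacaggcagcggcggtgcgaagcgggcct

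Complex II, succinate dehydrogenase, is the only complex of the chain that is also an enzyme of the tricarboxylic acid cycle. Its 4 genes were lower by a median of -0.18, and by -0.19 within slide 1 and -0.14 within slide 2. Sdha, the flavoprotein that oxidises succinate, read 5.40, 5.50, 5.46 and 5.64 on the Rap1-/- arrays and 5.90, 5.60, 5.72 and 5.64 on the WT arrays. The groups overlapped, with WT replicate 2 below Rap1-/- replicate 4, and the difference was -0.22 ± 0.10 (SE, limma adjusted p = 0.874). Sdhb, the iron-sulphur subunit, read 6.57, 6.80, 6.72 and 6.75 on the Rap1-/- arrays and 7.09, 6.73, 6.88 and 6.91 on the WT arrays, a difference of -0.19 ± 0.10. Only WT replicate 2 lay among the knockout arrays. The membrane anchors are encoded by Sdhc and Sdhd. Sdhc read 4.65, 4.80, 4.77 and 4.84 on the Rap1-/- arrays and 5.05, 4.54, 4.93 and 4.93 on the WT arrays (-0.10 ± 0.12), so that its lowest array was a WT one. Sdhd read 5.82, 6.00, 5.84 and 5.88 on the Rap1-/- arrays and 6.29, 5.85, 5.96 and 6.07 on the WT arrays (-0.16 ± 0.11), and the groups overlapped.

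Complex III, the cytochrome bc1 complex, had 9 of 9 genes lower and a median of -0.22, which was -0.23 and -0.18 within the slides. Uqcrh, the hinge protein that helps cytochrome c1 meet cytochrome c, read 7.07, 7.26, 7.12 and 7.24 on the Rap1-/- arrays and 7.64, 7.34, 7.46 and 7.40 on the WT arrays. Every knockout array was below every WT array. This order was seen in 2.36% of all features, 6.64% of the brightest 10% without the subunit genes, and 2 of the 40 subunit genes. The Uqcrh difference was -0.29 ± 0.10 (SE, 95% interval -0.51 to -0.07, limma adjusted p = 0.874), or 1.22-fold lower, and the exact two-sided permutation p was 0.0286, the smallest that 4 against 4 arrays allow. It was -0.33 within slide 1 and -0.25 within slide 2, and its other probe gave -0.25. Uqcrfs1, the Rieske iron-sulphur protein, read 5.44, 5.72, 5.50 and 5.59 on the Rap1-/- arrays and 5.95, 5.65, 5.67 and 5.73 on the WT arrays. The groups overlapped at Rap1-/- replicate 2, and the difference was -0.19 ± 0.10. Uqcrb, a small ubiquinone-binding subunit, read 6.05, 6.29, 6.25 and 6.28 on the Rap1-/- arrays and 6.56, 6.29, 6.30 and 6.45 on the WT arrays, a difference of -0.18 ± 0.10. Here the groups met at 6.29. Of the core proteins, Uqcrc1 differed by -0.10 and Uqcrc2 by -0.21, and Cyc1, which encodes cytochrome c1, by -0.22. The small subunits Uqcrq, Uqcr10 and Uqcr11 differed by -0.26, -0.24 and -0.23.

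Cytochrome c, the soluble carrier between complexes III and IV, was measured by Cycs. It read 5.47, 5.93, 5.59 and 5.71 on the Rap1-/- arrays and 6.22, 5.68, 5.71 and 6.19 on the WT arrays. WT replicates 1 and 4 stood high and the other arrays overlapped. The difference was -0.27 ± 0.17 (SE, limma adjusted p = 0.874), and -0.25 and -0.30 within the slides. Its other probes gave -0.24 and, for a dim probe well above background on 7 of 8 arrays, -0.71. The mean of all 3 probes gave -0.41.

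Complex IV, cytochrome c oxidase, takes its catalytic core from mitochondrial DNA and its outer subunits from the nucleus. Its 12 nuclear genes had a median difference of -0.18, and -0.15 and -0.20 within the slides. Cox5b, a matrix-side subunit, read 5.90, 6.14, 6.00 and 6.09 on the Rap1-/- arrays and 6.41, 6.06, 6.25 and 6.33 on the WT arrays. Only WT replicate 2 lay within the knockout range, and the difference was -0.23 ± 0.10. Cox8a, the ubiquitous form of a small membrane subunit, read 8.40, 8.51, 8.48 and 8.57 on the Rap1-/- arrays and 8.87, 8.55, 8.87 and 8.58 on the WT arrays (-0.23 ± 0.11). WT replicate 2 again lay below 1 knockout array. Cox4i1 and Cox5a, whose products join early in the assembly of the enzyme, differed by -0.20 and -0.29. The remaining small subunits Cox7b, Cox6a1, Cox7c, Cox6b1, Ndufa4 and Cox6c lay between -0.20 and -0.12.

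Cox7a2 and Cox7a2l are relatives with different roles, the first a subunit of the oxidase and the second a factor that joins complexes III and IV into supercomplexes. Cox7a2 read 5.33, 5.62, 5.37 and 5.47 on the Rap1-/- arrays and 5.81, 5.56, 5.52 and 5.74 on the WT arrays, a difference of -0.21 ± 0.10 with overlapping groups. Cox7a2l read 6.22, 6.02, 6.10 and 6.04 on the Rap1-/- arrays and 6.15, 6.30, 6.10 and 5.95 on the WT arrays. Its highest and lowest arrays were both WT, and it did not share the array order of the other genes. The difference was -0.03 ± 0.10 (95% interval -0.25 to 0.20, limma adjusted p = 0.978), the smallest of the 40, and its sign turned under several scalings. Its other probes gave 0.00 and -0.05. The difference between the 2 relatives was not tested.

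Complex V, ATP synthase, had 14 of 14 measured genes lower with a median of -0.20, and -0.21 and -0.19 within the slides. In the catalytic head, Atp5a1, the alpha subunit, read 6.58, 6.78, 6.64 and 6.66 on the Rap1-/- arrays and 7.09, 6.77, 6.86 and 6.87 on the WT arrays. The groups crossed only at Rap1-/- replicate 2 and WT replicate 2, and the difference was -0.23 ± 0.09. The other head and central stalk subunits, Atp5b, Atp5c1, Atp5d and Atp5e, lay between -0.22 and -0.13. In the peripheral stalk, which holds the head still, Atp5h read 7.13, 7.32, 7.16 and 7.22 on the Rap1-/- arrays and 7.58, 7.32, 7.49 and 7.41 on the WT arrays. The groups met at 7.32, and the difference was -0.24 ± 0.09 (SE, 95% interval -0.44 to -0.03, limma adjusted p = 0.874). Atp5f1, Atp5o and Atp5j of the same stalk differed by -0.17, -0.17 and -0.14.

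The rotor ring of ATP synthase is built from c subunits, and its genes encode the same mature protein behind different import sequences. Atp5g2 read 6.71, 6.92, 6.95 and 6.89 on the Rap1-/- arrays and 7.31, 6.98, 7.17 and 7.09 on the WT arrays, and the groups did not overlap. Its difference was -0.27 ± 0.10 (SE, 95% interval -0.50 to -0.04, limma adjusted p = 0.874), the exact permutation p was 0.0286, and its second probe gave -0.21. Atp5g3 read 7.23, 7.57, 7.32 and 7.41 on the Rap1-/- arrays and 7.92, 7.44, 7.55 and 7.66 on the WT arrays (-0.26 ± 0.13), and overlapped at WT replicates 2 and 3. Among the membrane subunits that shape cristae, Atp5k read 6.29, 6.68, 6.52 and 6.60 on the Rap1-/- arrays and 6.89, 6.49, 6.92 and 6.90 on the WT arrays, a difference of -0.28 ± 0.13. WT replicates 1, 3 and 4 stood above all knockout arrays, and WT replicate 2 lay among them. Atp5l and Atp5j2 differed by -0.19 and -0.18.

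Probes agreed in direction within genes. The 40 genes had 65 kept probes, of which 64 were lower in Rap1-/-, and the exception was a probe of Cox7a2l. The 25 probes not used above, from 17 genes, had a median difference of -0.19. Probes of 1 gene read the same RNA and are no replicates.

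Other genes of the pathway were less uniform. Of 31 measured assembly factors of complexes II to V, which build the complexes without being part of them, 20 were lower with a median of -0.05, and 0 passed limma at an unadjusted p under 0.05. Bcs1l, which inserts the Rieske protein into complex III, differed by -0.24 ± 0.12, and Fmc1, an ATP synthase factor, by -0.19 ± 0.11. Cox10, which makes heme A precursor, differed by 0.27 ± 0.19. Of 11 measured regulators, 7 were lower with a median of -0.01, and 0 passed at the unadjusted level. The coactivators Ppargc1a and Ppargc1b differed by -0.31 ± 0.15 and -0.29 ± 0.15, while Nrf1, Gabpa and Yy1 differed by -0.01, 0.03 and 0.00. Among further subunits, Atp5mpl and Usmg5 differed by -0.25 ± 0.11 and -0.14 ± 0.11. Atpif1, the inhibitor of ATP synthase, read 5.35, 5.13, 5.11 and 5.23 on the Rap1-/- arrays and 4.91, 5.15, 4.99 and 5.20 on the WT arrays. The groups overlapped and its difference was 0.14 ± 0.10 (SE, limma adjusted p = 0.878).

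Complex IV also has forms restricted to muscle, brown fat, lung or testis, and 5 of 8 such genes were bright enough to test. Cox6a2, the heart and skeletal muscle form, read -1.12, 5.39, 4.25 and -1.96 on the Rap1-/- arrays and 3.96, 2.09, 1.57 and 3.97 on the WT arrays, a 163-fold range. The lowest arrays were Rap1-/- replicates 1 and 4, where the muscle markers were also lowest. Cox7a1 read 1.83, 4.02, 3.24 and 2.00 on the Rap1-/- arrays and 3.16, 1.94, 1.85 and 3.47 on the WT arrays, a 4.58-fold range. Cox8b read 2.83, 4.80, 4.02 and 4.64 on the Rap1-/- arrays and 4.55, 3.94, 4.60 and 4.83 on the WT arrays. Both of these are found in muscle and brown fat. Their genotype differences were -1.26 ± 1.68, 0.17 ± 0.57 and -0.41 ± 0.42 in that order. Single arrays decided these values. Cox6a2 differed by -2.51 without Rap1-/- replicate 2 and by -0.05 without Rap1-/- replicate 4, Cox7a1 by -0.25 without Rap1-/- replicate 2, and Cox8b by 0.01 without Rap1-/- replicate 1. The ubiquitous partners Cox6a1, Cox7a2 and Cox8a ranged by only 0.44, 0.48 and 0.47 log2 units over the same arrays. Cox4i2, the lung form, read -0.04, -0.14, -0.05 and 0.10 on the Rap1-/- arrays and 0.08, -0.24, 0.11 and 0.06 on the WT arrays (-0.04 ± 0.10). Cox6b2, the testis form, read 0.02, 0.04, 0.39 and 0.43 on the Rap1-/- arrays and 0.10, 0.16, 0.42 and 0.05 on the WT arrays (0.04 ± 0.14). The groups overlapped for both.

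**Figure D4:**
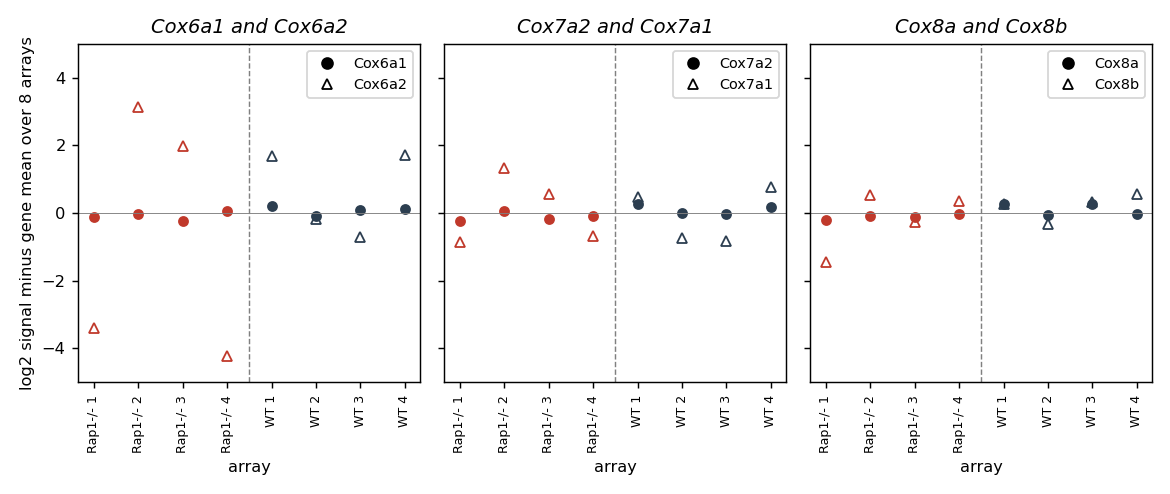
Signal of 3 ubiquitous complex IV subunits (filled circles) and their muscle forms (open triangles) on each array (log2, minus the gene's own mean over 8 arrays; red Rap1-/-, dark blue WT). Cox6a2 covers 7.35 log2 units and is lowest on Rap1-/- replicates 1 and 4, whereas Cox6a1 covers 0.44.

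The size of the subunit difference depended on how arrays were scaled. The median of the 40 genes was -0.14 after median scaling, -0.17 after normexp background correction, and -0.10 after quantile normalisation and in the deposited value table. In those 4 settings 39, 39, 37 and 37 genes were lower. In every setting that was run, 0 of the 40 genes passed the adjusted threshold, and their median lay 0.10 to 0.21 below that of all features, a gap that median and E1A scaling cannot alter.

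**Figure D5:**
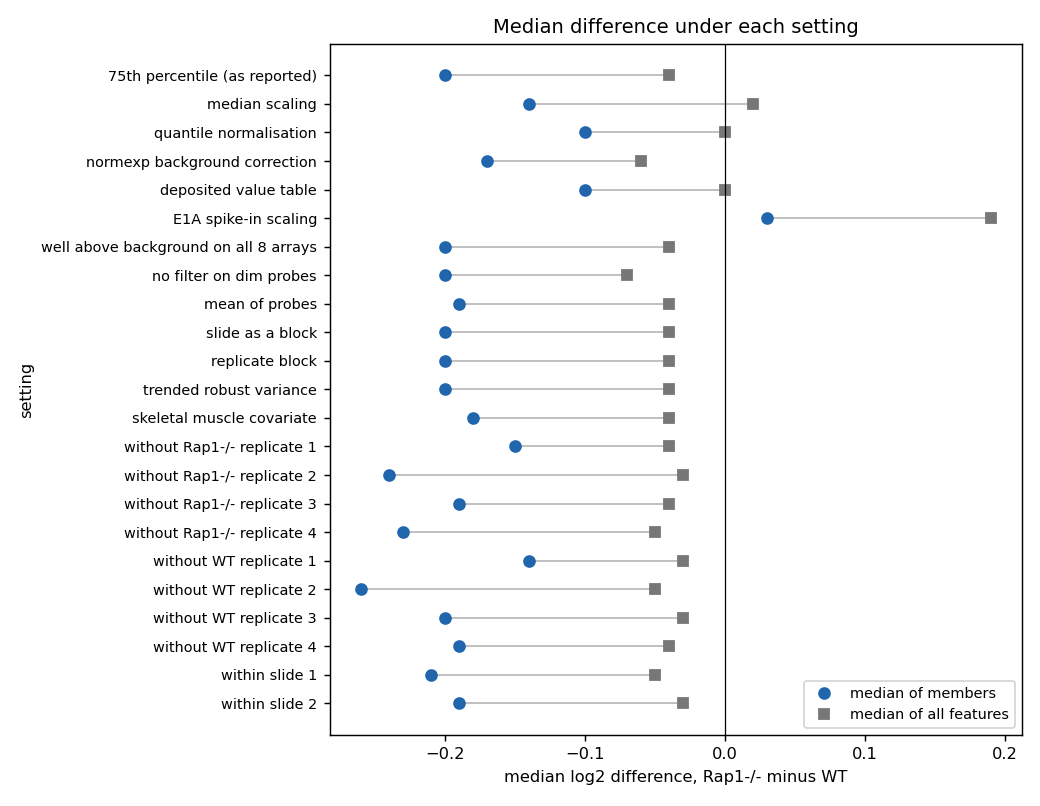
Median difference (log2, Rap1-/- minus WT) of the 40 subunit genes (circles) and of all features (squares) under each processing setting and with arrays left out. The circle lies left of the square in every setting, and it lies above 0 only with E1A spike-in scaling (0.03 against 0.19).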

How the data were processed

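The authors hybridised fat RNA of each of the 8 mice to a one-colour Agilent array. Per the file headers the scans were read with Feature Extraction 10.7.3.1 (the study's methods name another version), and the deposited scanner files hold linear intensity values per spot with flag scores of 0 or 1. The deposited value table holds log2 values, with column medians of 6.57. Its scale and centring were settled by recomputing it as normexp (offset 50) and then quantile normalisation, and it served as an alternative. Its processing is not given in the sources used here beyond limma.

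Spots marked as outliers were dropped, replicate spots were averaged on the log2 scale, and each array was centred on the 75th percentile of its processed signal. A probe was kept when at least 4 of the 8 arrays read it well above background. RefSeq accessions (GRCm38.p6 table) named 26044 of 55681 probes (46.8%), and other probes were grouped by the accession in the file. The brightest probe stood for each gene. The genotype test was limma 3.58.1 in R 4.3.3 (lmFit, eBayes) over 25064 features with Benjamini-Hochberg adjustment. It was also run on simulated arrays with independent noise for each feature and planted changes larger than any subunit difference. That run cannot show whether differences as small and as shared between genes as these would be found. The labels call the samples biological replicates, and their number limits the precision.

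Members and lists were chosen with earlier results of these data known. Values on every array are given for complex II, Cycs, the 3 genes of complexes III and IV and the 4 of complex V with the smallest p, the Atp5g and Cox7a2 families and measured isoforms, with up to 4 genes by p from other lists. Exceptions are Nrf1, Gabpa, Yy1 and Ucp1, which were named for their roles after their values were seen. Lep is another, since it lies outside the first 4 adipocyte markers by p and was named as the one that was higher. Alternatives covered scaling, background correction, dim-probe filters, probe choice, slide and replicate blocks, the variance model, a muscle covariate and leaving out arrays. Figures were drawn with matplotlib 3.10.9.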

Additional observations from a re-analysis of the deposited data

Results flagged for a closer look

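On 2 occasions 1 array stood apart from the other 3 of its genotype by more than Dixon's 95% critical share of the group's range. Atp5k read 6.49 on WT replicate 2, against 6.89, 6.90 and 6.92 on the other WT arrays, a gap of 0.91 of the range. Cox4i2 read -0.24 on WT replicate 2, against 0.06, 0.08 and 0.11, a gap of 0.87 of the range. In all, 54 groups of 4 arrays were examined, and chance alone marks about 1 in 20 such groups.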

How the results depend on the processing

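Over the 22 alternative settings, 0 of 40 subunit genes passed the adjusted limma threshold in any. Single-gene values were followed for the 17 subunit genes reported in full, not for all 40. Of these 374 values, 358 kept their sign and side of the threshold and 16 turned in sign. With E1A spike-in scaling, 10 genes were lower and the medians were 0.03 for all 40 genes, 0.05 for complex II, 0.01 for complex III, 0.05 for complex IV and 0.03 for complex V. Single genes were then 0.01 for Sdha, 0.04 for Sdhb, 0.13 for Sdhc, 0.07 for Sdhd, 0.05 for Uqcrb, 0.04 for Uqcrfs1, 0.00 for Cox5b and Cox8a, 0.02 for Cox7a2 and 0.20 for Cox7a2l. In the deposited table the medians of complexes II and IV were -0.05 and -0.04. Cox7a2l was 0.03 with median scaling, 0.09 with quantile normalisation, 0.03 with normexp, 0.10 in the deposited table, 0.03 without WT replicate 2 and 0.05 within slide 2. With each array left out in turn the median of the 40 genes ranged from -0.26 to -0.14 and Cox7a2l from -0.09 to 0.03. With E1A scaling each array is moved by a constant of its own. The 75th percentile leaned higher in Rap1-/-, whereas the E1A means of the genotypes overlapped, and the E1A shift follows from these anchors. Why the anchors differ was not tested, nor was the cause of the other shifts.

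With the replicate block, the median of the 40 genes stayed at -0.20 and 40 were lower, while the count at an unadjusted limma p under 0.05 was 0 in place of 4. The replicate numbers did not pair the arrays. Deviations of same-numbered arrays from their group means correlated at -0.22 to -0.13 across features, and 0 of 8 arrays correlated best with their own number. Signal over background did not limit the subunit genes, since all 40 were well above background on all 8 arrays.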
